A study of Mus musculus with 10 samples.

Results

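Peaks on unplaced and unlocalized scaffolds of the mouse genome were collected from ATAC-seq of mature sperm. The members were all peaks whose sequence name is not one of chromosomes 1 to 19, X or Y, which gave 1052 of the 180022 peaks of the 10 libraries. A peak here is a distinct interval of a library's list, and an interval can hold several summits, so that the 1052 peaks held 1196 summits. Peaks that overlapped by at least 1 bp between libraries were merged, which gave 239 regions on 23 scaffolds, of 113493 regions in all. A library held 75 to 126 scaffold peaks, or 0.383 to 0.845% of its list.

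Sperm was taken from the cauda epididymis of 6 males fed a standard chow diet (F0 CD) and 4 males fed a Western diet high in fat (F0 WD). All mice were wild type C57BL/6JRccHsd males, acquired at 3 weeks of age, which received their diet for 6 months, and each mouse gave 1 library. Groups were sized from the sample titles, because 1 sentence of the sample protocol gives 4 chow and 6 Western diet replicates. In ATAC-seq the Tn5 transposase cuts accessible DNA, and the authors called peaks in each library separately.

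Scaffolds are stretches of assembled sequence that could not be put at a position on a chromosome. An unlocalized scaffold has a known chromosome, and an unplaced scaffold has none. Many hold satellite DNA, which is repeated in tandem around the centromeres, or duplicated blocks of genes that are hard to assemble. Mature sperm packs most of its DNA with protamines and keeps histones at a small share of the genome, including some repeats. Bulk libraries cannot separate more copies of a sequence from more accessible copies.

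The lists held 13366 to 29532 peaks, and F0 CD replicate 2 had the longest, with the other 9 libraries at up to 20127. The sample protocol names a minimum of 60000000 reads per library after quality control, and the lists hold no read total of a library. The smallest called summits held 9 to 13 reads, so that a missing peak can be a matter of depth. The labelled cell type was compared with marker genes by a peak within 3 kb of a start site. Of 10 spermatid and sperm genes, 0 had one in at least 2 libraries, and Prm1, a protamine, and Odf1, a tail protein, had one in 1 library each. The counts were 0 of 7 for epididymal epithelium, 2 of 4 for germ line stem cells (Kit and Zbtb16, each in 1 F0 CD and 1 F0 WD library) and 1 of 5 for immune cells. Over 21992 protein-coding genes 18.5% had a peak in at least 2 libraries, so that these small lists do not mark a cell type. The labelled cell type rests on the dissection and on a qPCR check of the preparation by the study, which is not analysed here.

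The scaffold JH584304.1, an unplaced scaffold of 114452 bp, carried 498 of the 1052 peaks (47.3%). Beyond about 68 kb it is a tandem repeat with a unit of 234 bp, the unit length known for the mouse major satellite of pericentromeric DNA. The 3 strongest regions of this stretch are shown first because they were among the strongest peaks of every library. They were chosen by fold, and the longest run that all 3 share, of 43 bases, was then marked. The sequences below are the forward strand of mm10 (GRCm38.p6, RefSeq), and the capitals mark the shared run.
JH584304.1:113280-113442: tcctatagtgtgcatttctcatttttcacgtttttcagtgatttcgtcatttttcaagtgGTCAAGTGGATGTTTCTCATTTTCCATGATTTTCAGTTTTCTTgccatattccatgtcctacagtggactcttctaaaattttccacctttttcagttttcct
JH584304.1:106733-106895: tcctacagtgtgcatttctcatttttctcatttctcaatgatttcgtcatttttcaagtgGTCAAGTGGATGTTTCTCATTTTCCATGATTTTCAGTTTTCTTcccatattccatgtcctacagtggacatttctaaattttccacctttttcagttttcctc
JH584304.1:98320-98482: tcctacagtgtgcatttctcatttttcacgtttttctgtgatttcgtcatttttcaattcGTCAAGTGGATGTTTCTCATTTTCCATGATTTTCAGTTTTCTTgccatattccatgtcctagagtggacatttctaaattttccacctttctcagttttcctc

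The windows of 163 bases reach 60 bases to either side of the run. The median summit lay 18 bases before the start of the run in the region at 113172-113496 and 40 bases after its start in the region at 106630-106997. In the region at 97846-98504 the median summit lay 210 bases before the start of the run, outside the printed window. Each summit stayed within 11, 15 and 29 bp over the 10 libraries.

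Other regions found in all 10 libraries lay outside this satellite. They are shown as the strongest region of the first 70 kb of JH584304.1 and as a region of 3 scaffolds assigned to chromosome 1. The windows of 121 bases are again the forward strand of mm10 (RefSeq), and the capitals mark the 21 bases centred on the median summit. Over the 10 libraries the strongest summit ranged over 122, 232, 325 and 95 bp, in the order printed. The capitals therefore do not mark a summit common to all libraries.
JH584304.1:2476-2596: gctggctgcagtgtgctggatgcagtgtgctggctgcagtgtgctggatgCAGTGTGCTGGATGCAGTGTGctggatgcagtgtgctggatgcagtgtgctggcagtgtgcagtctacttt
GL456211.1:175324-175444: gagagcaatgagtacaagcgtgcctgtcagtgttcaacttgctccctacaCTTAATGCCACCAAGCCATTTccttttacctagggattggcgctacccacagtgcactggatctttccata
GL456212.1:91734-91854: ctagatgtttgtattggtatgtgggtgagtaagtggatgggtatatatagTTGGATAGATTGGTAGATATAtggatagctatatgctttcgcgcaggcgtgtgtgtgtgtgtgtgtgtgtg
GL456221.1:128832-128952: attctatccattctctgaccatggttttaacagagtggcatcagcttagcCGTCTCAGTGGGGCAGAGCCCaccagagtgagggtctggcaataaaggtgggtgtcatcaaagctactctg

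Peaks were unevenly spread over the scaffolds. After JH584304.1, with 38 to 56 peaks per library, the next were GL456212.1 with 80 peaks in all, GL456211.1 with 76, GL456239.1 with 57 and GL456387.1 with 54. GL456370.1 had 42 peaks, GL456210.1 had 41, GL456221.1 had 38 and GL456392.1 had 37. GL456393.1, GL456378.1, JH584292.1, GL456383.1, GL456216.1, GL456389.1, GL456394.1 and GL456396.1 had between 10 and 21 peaks each, GL456390.1 had 3 and GL456381.1 had 2. GL456359.1, GL456360.1, GL456368.1 and JH584299.1 had 1 peak each, in F0 WD replicate 3, 1, 4 and 1. These single peaks had 13, 13, 14 and 20 reads, where the smallest called summits of a library had 9 to 13. They were too few for a test by diet and do not show a difference between the diets. By number of peaks, the first 10 scaffolds had peaks in 9 or 10 libraries.

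**Figure D1:**
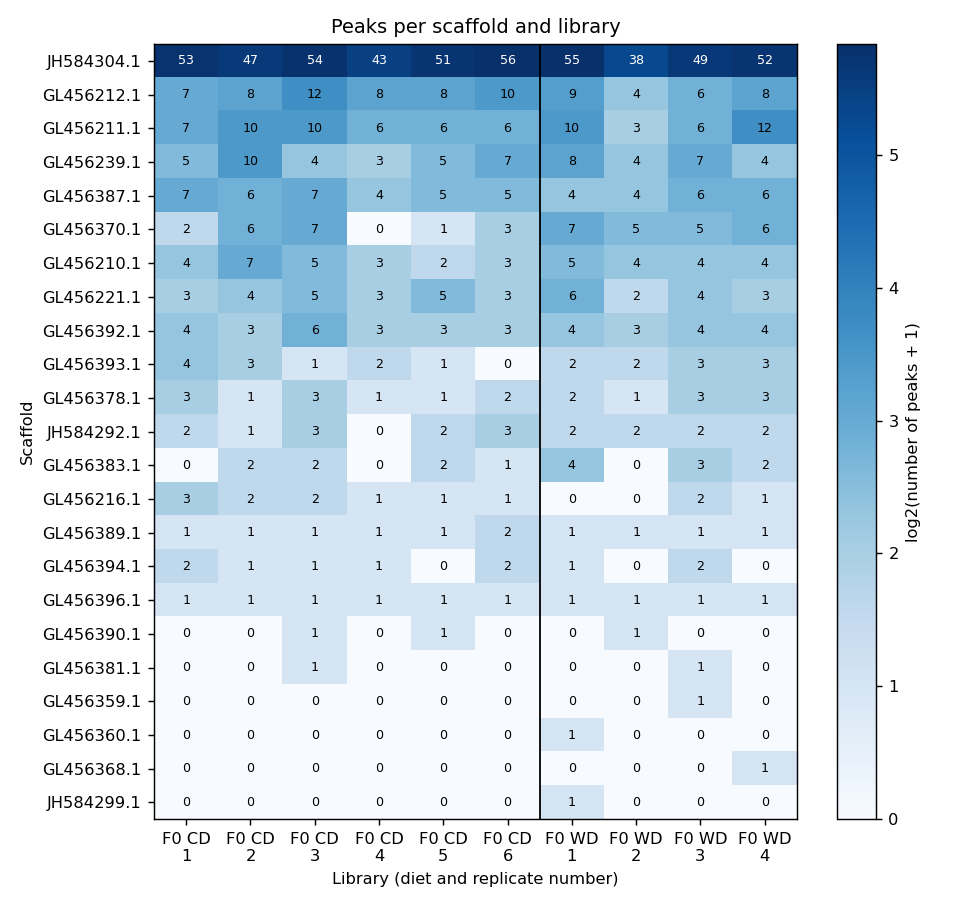
Number of peaks on each scaffold (rows) in each library (columns, F0 CD then F0 WD), with the number written in each cell. JH584304.1 holds 38 to 56 peaks in every library, and the last 4 scaffolds hold 1 peak in 1 library each, too few to compare the diets.

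Length did not order the scaffolds by their peaks. A density could be given for the 8 scaffolds whose sequence was found in the reference. The chromosomes carried 5.03 to 11.2 peaks per Mb in a library, with a median of 6.60. JH584304.1 carried 332 to 489 peaks per Mb (median 450), which was the highest of the 8. JH584292.1, an unlocalized scaffold of chromosome 4, had a median of 134 peaks per Mb on only 14945 bp. The medians were 52.1 on GL456212.1, 26.9 on GL456211.1, 23.6 on GL456210.1 and 16.9 on GL456221.1, all assigned to chromosome 1, and 15 on GL456216.1 of chromosome 4. JH584299.1 of chromosome 5, with 953012 bp the longest of the 8, had a median of 0 and a highest value of 1.05.

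Scaffold peaks recurred across the mice. Of the 239 regions, 155 were shared by 2 or more libraries, and 41 (17.2%) were present in all 10. Of the chromosome regions, 520 (0.459%) had a peak in all 10. Regions of a single library made up 84 (35.1%) of the scaffold regions and 78.3% of the chromosome regions. In each library 87.3 to 94.7% of the scaffold peaks overlapped a peak of another library (92.3% ± 2.35, SD, n = 10), against 44.1 to 57.9% of the chromosome peaks (50.8% ± 4.62, SD, n = 10). The ranges did not overlap, and no p is given because each library is compared with the same others. Overlap with another list also depends on how densely peaks lie. JH584304.1 carried 332 to 489 peaks per Mb in a library, against 5.03 to 11.2 on the chromosomes. The part of density in this recurrence was not tested. JH584304.1 held 31 of the 41 regions of all 10 libraries, and the others were 2 each on GL456211.1 and GL456392.1 and 1 each on GL456212.1, GL456221.1, GL456239.1, GL456387.1, GL456389.1 and GL456396.1. Without JH584304.1, 99 regions were shared by 2 or more libraries, 10 of them by all 10.

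**Figure D2:**
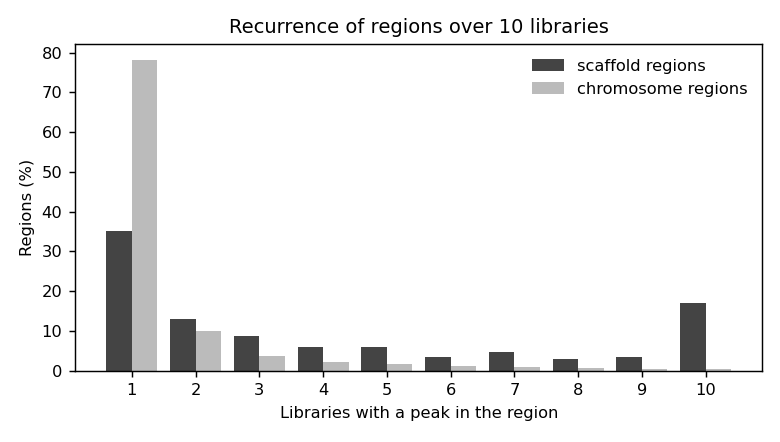
Percent of merged regions (y axis) by the number of libraries with a peak in the region (x axis), for scaffolds and for chromosomes 1 to 19 and X. On scaffolds 35.1% of regions lie in 1 library and 17.2% in all 10, and on chromosomes 78.3% and 0.459%.

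The strength of a peak is given as fold enrichment, which is how many times a summit's reads exceed the level of its surroundings, with 1 added to both. From fold and p-value the reads at the summit and the background could be solved for every scaffold summit. The background is given relative to the lowest background of its library, which was 2.11 to 4.42 reads. The strongest scaffold region was GL456389.1:10345-10894. Its fold was 24.6 to 30.5 in the F0 CD libraries (median 27.6) and 30.6, 30.3, 26.8 and 29.1 in the F0 WD libraries. It ranked between 4 and 9 by fold among all summits of every library, with 140 to 225 reads at the summit, and the diets overlapped.

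The satellite region JH584304.1:113172-113496, the first sequence printed above, came next. Its fold was 19.95 to 26.1 in F0 CD (median 21.3) and 24.4, 24.4, 22.9 and 19.3 in F0 WD, with ranks of 9 to 18. Its background was at the lowest level of the library in most mice, with a highest ratio of 1.23. The high fold of this region was reached with 74 to 114 reads. It ends close to the end of the scaffold, at 114452 bp, so its surroundings are cut short on that side. The effect of this on its background, fold and rank was not tested. GL456396.1:11842-12160, the only region of its scaffold, had a fold of 17.6 to 22.8 in F0 CD (median 19.9) and 18.9, 22.6, 19.1 and 17.5 in F0 WD. GL456392.1:21999-22890 had the highest read counts of the scaffold regions named, 252 to 390, on a background of 4.22 to 5.93 times the lowest. Its fold was 18.1 to 20.4 in F0 CD (median 19.2) and 20.9, 19.3, 21.3 and 18.8 in F0 WD, and the diets overlapped at all 3 regions.

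The other 2 satellite regions printed above were JH584304.1:106630-106997 and JH584304.1:97846-98504. The first had a fold of 14.2 to 16.8 in F0 CD (median 16.2) and 14.1, 15.6, 11.0 and 16.2 in F0 WD. It had 72 to 156 reads, on a median background of 1.85 times the lowest. The second had a fold of 14.3 to 17.8 in F0 CD (median 15.2) and 16.2, 17.5, 15.3 and 18.9 in F0 WD. Both stood between the strongest scaffold regions and the bulk of scaffold summits, whose median fold was 3.14. Below them came the satellite regions JH584304.1:88167-88440 with a median fold of 9.94, JH584304.1:79172-79544 with 8.68, JH584304.1:103243-104017 with 5.60 and JH584304.1:73041-73406 with 4.48. GL456392.1:23051-23370, next to the strong region of that scaffold, had a median fold of 5.97.

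**Figure D3:**
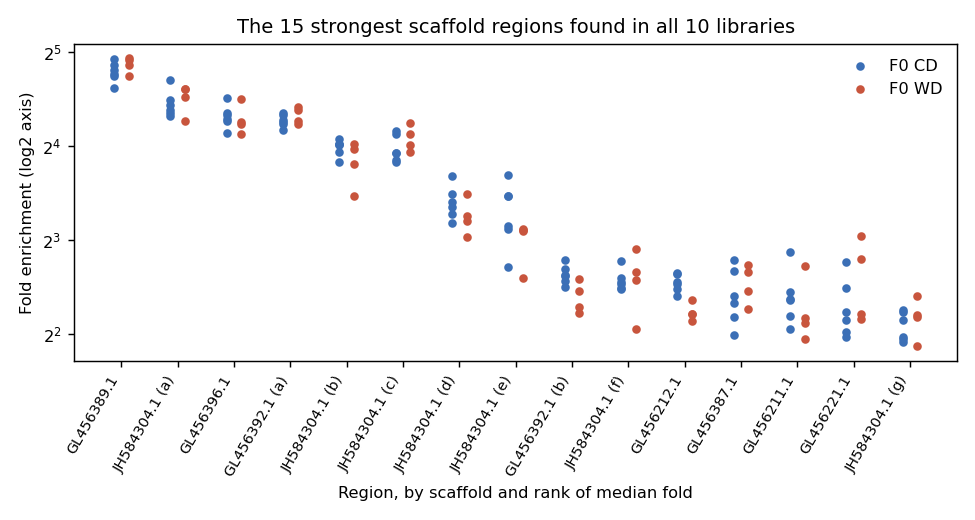
Fold enrichment (log2 axis) of the 15 strongest scaffold regions found in all 10 libraries, with 1 point per library, F0 CD and F0 WD in separate colours. The strongest region, on GL456389.1, lies between 24.6 and 30.6 in all libraries, and the points of the diets overlap at each region except GL456212.1:91582-92262.

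JH584304.1 fell into 2 stretches that differed in fold, reads and sequence. The boundary of 70 kb was set after the values were seen, so the stretches are described without a test. The first 70 kb held 49 regions, 24 of them found in all 10 libraries, and the rest of the scaffold held 13 regions, 7 of them found in all 10. In the first 70 kb the 473 summits had a median fold of 2.02 (1.36 to 3.94) with a median of 143 reads (57 to 286). The background there was 21.5 times the lowest of its library in the median and 11.3 times at least. Beyond 70 kb the 101 summits had a median fold of 6.87 (2.37 to 26.1) with a median of 44 reads, on a background of 1.67 times the lowest (1 to 2.70). Regions covered 35.5% of the first stretch and 12.3% of the other. The low fold of the first stretch thus stood beside many reads and a high background in all 10 libraries, with library medians of the background ratio from 20.2 to 24.7.

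**Figure D4:**
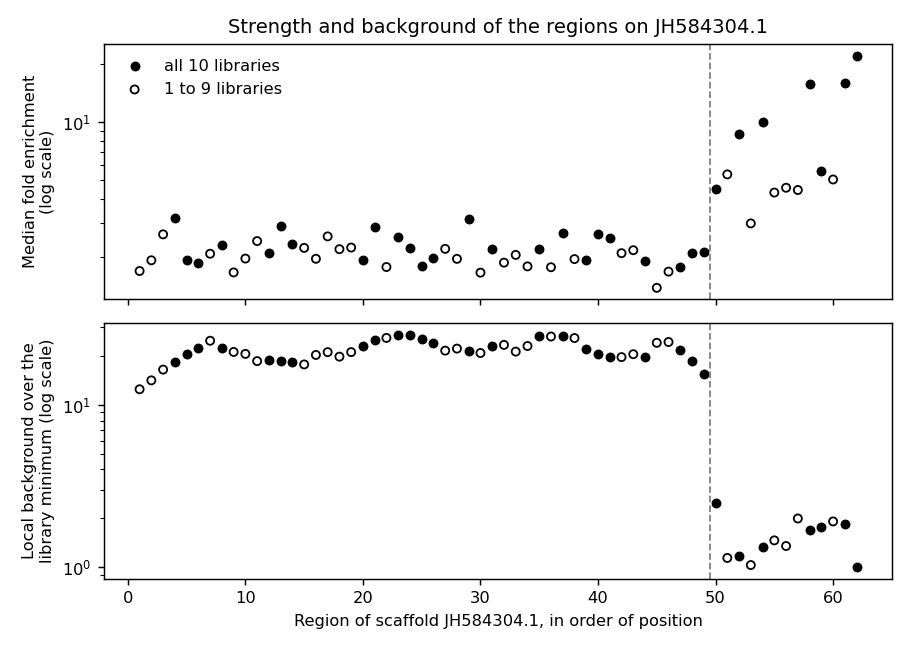
The 62 regions of JH584304.1 in order of position, with the median fold (upper panel) and the median background relative to the lowest background of the library (lower panel), filled where found in all 10 libraries, and a dashed line at the 70 kb boundary. Before the line the fold stays under 4 on a background above 11 times the lowest, and after it the fold reaches 22.1 on a background under 3 times the lowest.

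The strongest region of the first stretch was JH584304.1:2055-2893. Its fold was 2.94 to 3.50 in F0 CD (median 3.18) and 3.10, 3.37, 3.94 and 2.73 in F0 WD, with 131 to 243 reads. Reads were thus more numerous here than at the satellite region with the highest fold. JH584304.1:53141-54421, the third widest scaffold region with 1281 bp, overlapped an exon of AC149090.1, annotated as a protein-coding gene on the reverse strand. Its strongest summit had a fold of 1.93 to 2.26 in F0 CD (median 2.02) and 2.08, 2.31, 1.91 and 1.96 in F0 WD. AC149090.1 also held the regions JH584304.1:55107-55817 and JH584304.1:58549-59226, found in all 10 libraries with median folds of 2.63 and 2.51.

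The sequence of JH584304.1 changed at about the same position. Of the 46 windows of 1 kb beyond 68 kb, 40 matched themselves best at an offset of 234 bp and 6 at 233 bp, with a median identity of 74.4% (58.3 to 94.9%). Of the 68 windows before it, 0 had either offset, and the median identity at the best offset was 30.3%. Repeat-masked bases made up 95.3% of a window in the median beyond 68 kb and 29.6% before. The 13 regions beyond 70 kb had a GC content of 34.1 to 36.9%. Each had 182 to 192 other alignments on the scaffold and 99 to 169 on the chromosomes, counted at 90% identity over 80% of the length. Overlapping alignments in the tandem repeat were each counted, so these are not numbers of separate copies. The best chromosome matches of the 13 regions all lay near the start of chromosome 9 (9:3000266-3035182) with an identity of 92.7 to 96.3%. A peak was present at 7 of these 13 matches in all 10 libraries and at the other 6 in none. Many of the matches overlapped each other. Those with a peak all lay in the chromosome regions 9:2999921-3000741 or 9:3004460-3004729, so the 7 are not separate chromosome peaks.

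The run of 43 bases occurred 114 times on JH584304.1, from 68574 to 114277, always on the forward strand, and 42 of the 113 spacings were 234 bp. It was present in 9 of the 13 regions beyond 70 kb (69.2%), in 6 of the 7 found in all 10 libraries, in 0 of the 49 regions of the first 70 kb and in 0 of the 94 regions of the other scaffolds read. On the chromosomes it was found on either strand in 9 of 24608 regions of at least 2 libraries (0.0366%). All 9 had a peak in all 10 libraries, as did 2.11% of the chromosome regions of at least 2 libraries. The search covered only regions with a peak, so chromosome copies of the run without a peak were not counted. The 9 regions lay on 5 chromosomes, with the highest median fold, 27.7, at 12:3109783-3110183, and 12.2 at 2:98666195-98667393. The run was defined from 3 of the strong regions, themselves picked among those of all 10 libraries, so its presence there is not a result.

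The first 70 kb resembled a part of chromosome 11. Of its 49 regions, 38 had their best chromosome match at 11:3123958-3184173, with an identity of 91.6 to 99.3% (median 97.2%), and 8 had no match. That span holds Pisd-ps1, a pseudogene of the phosphatidylserine decarboxylase gene, and most of Sfi1, which encodes a centrin-binding protein of the centrosome. A peak lay at 7 of the 38 matches. In a library the span of 60.2 kb on chromosome 11 had 13 to 20 peaks (median 16.5), and the first 70 kb of the scaffold had 28 to 45 (median 40.5). On the chromosome 11 span the median background was 2.49 times the lowest and at most 4.44 times, with a median fold of 5.37. The background of the scaffold stretch, at 11.3 times or more, lay above that range. The part of reads from more than 1 copy in these values was not tested.

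The 4 scaffolds assigned to chromosome 1, GL456210.1, GL456211.1, GL456212.1 and GL456221.1, held 84 regions. For 83 of them another copy was found in the genome, and for 76 the best chromosome match lay on chromosome 1, with a median identity of 98.0%. Of these 76 matches, 75 lay within 1:84962624-85651611, a cluster that includes Sp110, Sp140 and the start of Sp100, genes of nuclear body proteins. A peak was present at 11 of the 76 matches, some of which overlapped each other. On GL456221.1, 9 regions lay in Csprs, a gene named as a component of an Sp100 relative, and GL456221.1:128704-129096 in an intron of it was found in all 10 libraries. Its fold was 3.90 to 6.82 in F0 CD (median 4.56) and 4.63, 8.23, 6.94 and 4.46 in F0 WD, with overlapping diets.

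On GL456211.1 the 2 regions of all 10 libraries were GL456211.1:175130-175704 in an intron of AC133103.1 and GL456211.1:112738-113287, 581 bp from the start of the pseudogene AC133103.2. The first had a fold of 4.15 to 7.33 in F0 CD (median 5.14) and 6.60, 4.49, 3.85 and 4.35 in F0 WD, with overlapping diets. The second had a median fold of 4.47 on a background of 1.84 times the lowest. GL456210.1:51933-52362 in an intron of AC125149.3 was found in 8 libraries with a median fold of 5.80. On GL456212.1 the region GL456212.1:151261-151743, 809 bp from the start of AC168977.1, was found in 9 libraries with a median fold of 6.64.

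Chromosome 4 scaffolds had fewer recurrent regions. JH584292.1:12548-13896, with 1349 bp the second widest scaffold region, was found in 9 libraries. It lay outside genes, 8975 bp from the start of Vmn2r122, a vomeronasal receptor gene. Its strongest summit had a fold of 4.85 to 6.62 in the 5 F0 CD libraries with a peak (median 6.03) and 4.07, 3.95, 4.53 and 5.00 in F0 WD, so that only the lowest F0 CD value overlapped with F0 WD. GL456216.1:34071-35066 overlapped an exon of CAAA01118383.1 and had peaks in 4 libraries of F0 CD and 2 of F0 WD, at a median fold of 3.53. JH584299.1 had its single peak, of 20 reads, in F0 WD replicate 1.

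The 15 scaffolds whose sequence was not read held 83 regions. The widest scaffold region, GL456239.1:37863-40018 with 2156 bp, was one of them and was found in all 10 libraries. Its strongest interval was 321 to 2075 bp wide in a library, and the region held up to 6 summits. The fold of its strongest summit was 2.81 to 3.24 in F0 CD (median 2.93) and 3.47, 2.67, 3.18 and 3.29 in F0 WD. GL456387.1:14765-15574, also in all 10 libraries, had a fold of 3.98 to 6.92 in F0 CD (median 5.17) and 4.80, 6.32, 6.65 and 5.49 in F0 WD. GL456370.1:26132-26661 was found in 8 libraries with a median fold of 5.62, GL456378.1:5210-5759 in 7 with 4.09 and GL456394.1:23337-24321 in 7 with 4.84. The most recurrent regions of the remaining scaffolds were GL456383.1:11958-12343 in 6 libraries, GL456393.1:55240-55638 in 3 and GL456390.1:4102-4407 in 2.

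Of the 156 regions on the 8 scaffolds read, 13 overlapped an exon, 24 lay in an intron and 119 outside annotated genes. Another copy in the genome was found for 140 of them (89.7%). The best chromosome match had a median identity of 97.5%, at most 99.5%, and 0 were identical over their length. A peak was present at 25 of the 136 matches, some of which overlapped each other. Among regions of at least 2 libraries, repeat-masked bases made up 32.6% in the median on these scaffolds and 69.9% on the chromosomes. Runs of 10 or more CA or TG units, counted on both strands, were present in 9 of the 105 scaffold regions (8.57%) and in 46.9% of the chromosome regions. The median GC content was 47.3 and 46.1%. These features are given as descriptions, since regions of 1 scaffold share their origin.

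Within each library, scaffold peaks were weaker by fold and wider than chromosome peaks, but they were not weaker by p-value or reads. The library median of the summit −log10 p was 9.33 to 13.3 on scaffolds and 6.24 to 7.25 on chromosomes. Median summit reads were 35 to 98.5 on scaffolds and 13 to 18 on chromosomes. Over all libraries the summits outside JH584304.1 had a median of 21 reads, against 16 on chromosomes. These reads and p-values were not tested. The library median of the fold was 3.18 ± 0.236 on scaffolds and 3.84 ± 0.340 on chromosomes (SD, n = 10), lower on scaffolds in 10 of 10 libraries. The mean difference was -0.658 (exact two-sided sign-flip permutation, p = 0.00195, the smallest that 1024 flips allow). This direction rested on JH584304.1, since without that scaffold the median was 4.12 ± 0.328, higher than on chromosomes in 10 of 10 libraries by 0.276 (exact permutation, p = 0.00195). Without only its first 70 kb, chosen after the values were seen, the difference was 0.452. A background above 5 times the lowest was found for 44.7% of the scaffold summits, 9.97% of those outside JH584304.1 and 0.344% of the chromosome summits.

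The median width was 287.85 ± 11.3 bp on scaffolds and 234.9 ± 3.35 bp on chromosomes (SD, n = 10). Scaffold peaks were wider in 10 of 10 libraries, by 33 to 73.5 bp (mean 52.95 bp, exact two-sided sign-flip permutation, p = 0.00195). Without JH584304.1 the difference was 34.15 bp, again in 10 of 10 libraries. Several summits were found in 10.4% ± 1.74 of the scaffold peaks and in 1.81% ± 0.322 of the chromosome peaks (SD, n = 10).

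**Figure D5:**
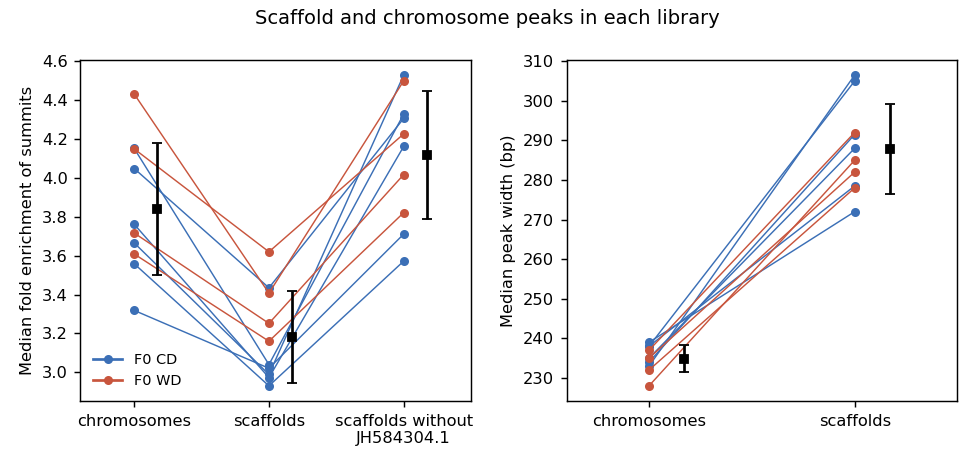
Median fold enrichment (left) of each library on chromosomes, on scaffolds and on scaffolds without JH584304.1, and median peak width in bp (right) on chromosomes and on scaffolds. Each library has 1 point, and squares stand at the mean ± SD of 10 libraries. The fold on scaffolds lies under that on chromosomes in all libraries, and above it once JH584304.1 is left out.

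The diets were compared for detection, share of peaks and strength. For detection, Fisher's exact test was run on all 24763 regions found in 2 or more libraries. Of the 155 scaffold regions, 0 passed an unadjusted p under 0.05 towards F0 WD, where 0.553% of all regions did, and 0 towards F0 CD, where 0.468% did. After Benjamini-Hochberg adjustment 0% of all regions passed. The smallest exact p on scaffolds was 0.133, at GL456370.1:16734-17149 and GL456393.1:49980-50489, each present in 2 F0 WD and no F0 CD library. That is the smallest p a region of 2 libraries can reach here. Regions found in 2, 8, 9 or 10 libraries could not pass with 6 and 4 libraries. They numbered 31, 7, 8 and 41 on scaffolds, and 11287, 827, 589 and 520 on chromosomes. Peaks of both diets were present in 138 of the 155 regions (89.0%), of F0 CD alone in 15 (9.68%) and of F0 WD alone in 2 (1.29%). On chromosomes the shares were 72.8% for both diets, 21.9% for F0 CD alone and 5.28% for F0 WD alone. Having 6 libraries against 4 favours regions of F0 CD alone. The share of libraries with a peak was higher in F0 WD at 58 scaffold regions, higher in F0 CD at 49 and equal at 48. The 41 regions of all 10 libraries are among the equal ones. These counts are also uneven, since a region with 1 library of each diet counts as higher in F0 WD, and they were not tested. Without F0 WD replicate 1, 3 of 148 scaffold regions passed (2.03%), with 1.16% of all regions passing. Without F0 CD replicate 1, 2 or 6, 1 scaffold region passed (0.662 to 0.680%), below the 1.74 to 1.96% of all regions.

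The number of scaffold peaks was 105 ± 15.7 in F0 CD (n = 6) and 105.25 ± 20.9 in F0 WD (n = 4, SD, exact permutation over 210 splits, p = 1). The share of a library's peaks was tested for 38 sequences, 18 of them scaffolds. At an unadjusted exact p under 0.05, 2.63% of the sequences were higher in F0 WD and 0% higher in F0 CD. The sequence that passed was the scaffold GL456370.1, with 0 to 7 peaks in the F0 CD libraries (median 2.5) and 7, 5, 5 and 6 in the F0 WD libraries. Its share was 0.0158% ± 0.0130 in F0 CD (n = 6) and 0.0347% ± 0.00777 in F0 WD (n = 4, SD, exact permutation, p = 0.0381, adjusted p = 0.905). The groups overlapped in counts, 0% of sequences passed after adjustment, and leaving out any library other than F0 CD replicate 3 raised the p above 0.05.

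The median fold of scaffold summits was 2.93 to 3.43 in F0 CD (median 3.01) and 3.25, 3.41, 3.62 and 3.16 in F0 WD. The means were 3.06 ± 0.185 (n = 6) and 3.36 ± 0.201 (n = 4), a difference of 0.295 (SD, exact two-sided permutation, p = 0.0524). Without F0 CD replicate 2, the library with the longest list, the difference was 0.369 (exact permutation, p = 0.00794), and it also passed without F0 WD replicate 1 (0.331) or 4 (0.361), each with an exact permutation p of 0.0357. Without JH584304.1 the difference was 0.0397 (exact permutation, p = 0.867). With the chromosome median of the same library taken off it was 0.0691 (exact permutation, p = 0.695). The chromosome medians were 3.75 ± 0.310 in F0 CD (n = 6) and 3.98 ± 0.383 in F0 WD (n = 4), and the part of this shift in the scaffold values was not tested further. The median width was 290.25 ± 13.9 bp in F0 CD (n = 6) and 284.25 ± 5.91 bp in F0 WD (n = 4, exact permutation, p = 0.438).

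Strength was compared at the 561 regions found in all 10 libraries, 41 of them on scaffolds, as log2 of the fold relative to the median of these regions in the library. An unadjusted exact p under 0.05 was reached by 0.357% of the 561 regions higher in F0 WD and by 0.891% higher in F0 CD, and by 0% after adjustment. On scaffolds 0 regions were higher in F0 WD and 1 was higher in F0 CD. This was GL456212.1:91582-92262, the third sequence of the second set above, with a fold of 5.27 to 6.25 in F0 CD (median 5.83) and 4.65, 5.15, 4.40 and 4.63 in F0 WD, without overlap. Its centred log2 difference was -0.33 (exact permutation, p = 0.0190, adjusted p = 1). Over the 41 scaffold regions the difference ranged from -0.33 to 0.26 with a median of 0.02, and it was above 0 in 23.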

How the data were processed

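The data were ATAC-seq peak lists of cauda sperm, 1 per mouse (6 F0 CD, 4 F0 WD), grouped by sample title, with no pooling. The submitters' processing notes and the methods name Trim Galore 0.6.10 for trimming, Bowtie2 2.4.5 for alignment to mm10 (GRCm38), with several alignments allowed per read, Picard 2.24.0 and SAMtools for removing duplicates and low-quality alignments, and MACS2 2.2.7.1 for peaks of each library. Alternative chromosomes are stated as left out, and scaffold peaks were in the lists. No peaks lay on chromosome Y (0). The score in the deposited lists is the authors' integer score per peak and was not used. The fold enrichment deposited by the authors is a ratio of summit reads to local background, each with 1 added. The p-value and q-value of each summit are −log10 values in the deposited lists. Read counts were not in the lists.

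Intervals sharing at least 1 bp were merged, and regions of at least 2 libraries were tested. Reads and background were solved from fold and Poisson p for all 1196 scaffold summits. The accepted error in the −log10 p was 0.001 plus 2e-05 times its value. Beyond the minimum of 60000000 reads in the sample protocol, the depth of a library is not in the lists, and the reads solved at its smallest summit limit what a missing peak can show. Fisher's exact test, two-sided, was used for detection, and shares, medians and strength were tested by exact permutation over all 210 splits, and scaffolds against chromosomes by exact sign flips. Adjustment was by Benjamini-Hochberg over the whole table. The tests were tested on simulated data.

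Scaffold sequences came from RefSeq GRCm38.p6. The sites compared were the start codons, stop codons and bases at the intron ends of GENCODE M21 gene models. A scaffold was paired with a contig where all its sites matched, at 8 or more sites, and the next best of 44 contigs matched at most 2. This paired 8 of 23 scaffolds with 72.8% of the peaks, and sequences of the other 15 were not used here. Copies were searched with BLAST+ 2.17.0 at 90% identity over 80% of the length.

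Regions named were the 15 strongest of all 10 libraries, the most recurrent on each scaffold, those past the detection threshold and the widest 3. Regions with another value of interest, the 70 kb boundary and the shared run were chosen after their values were seen. The members and lists were chosen with earlier results of these data known. Alternatives were q thresholds, overlap, gaps, summits, libraries required, mid-p, equal lists, the scale of the fold, leaving out JH584304.1 or each library, and the replicate number as a block. The software was samtools 1.23.1 and Python 3.11.15 with numpy 2.4.6, scipy 1.17.1, matplotlib 3.10.9, pandas 2.3.3 and pysam 0.24.0.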

Additional observations from a re-analysis of the deposited data

Results flagged for a closer look

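Groups of 4 or 6 libraries were searched for a sample far from the others in 54 groups of values, and 4 were found. Chance flags about 1 in 20 groups. The median fold of scaffold summits was 3.43 in F0 CD replicate 2, with the nearest F0 CD library at 3.04. The median background relative to the lowest was 5.71 in F0 WD replicate 2, with the nearest F0 WD library at 2.41. The fold at the satellite region JH584304.1:79172-79544 was 6.05 in F0 WD replicate 3, with the nearest F0 WD library at 8.54. The fold at JH584304.1:103243-104017 was 6.87 in F0 CD replicate 2, with the nearest F0 CD library at 6.04.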

How the results depend on the processing

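Of the 155 scaffold regions 0 passed the detection test. With peaks of q under 0.01, 1 of 150 did (0.667%, against 0.995% of all regions), GL456211.1:103183-103579, with a peak in 0 of 6 F0 CD and 3 of 4 F0 WD libraries. With 1 library left out, 0 to 3 did, and 1.06 to 2.00% of all regions. Without JH584304.1, 99 regions were found in at least 2 libraries and 10 in all. The count of scaffolds past the threshold for their share, 1 (GL456370.1), became 0 with peaks of q under 0.01, with summits and with equal lists, and 0 to 1 without 1 library. That 1 was GL456370.1 only without F0 CD replicate 3, and GL456393.1 without F0 CD replicate 1 and GL456383.1 without F0 WD replicate 2. The difference in median fold by diet was 0.208 to 0.369 without 1 library. The fold difference to the chromosomes changed sign without JH584304.1 (0.276) or without its first 70 kb (0.452), and stayed at -0.698 to -0.608 without 1 library. For strength the count of 1 in 41 scaffold regions became 3 uncentred and 2 by percentile rank, beside 10 and 25 of all 561 regions. It became 0 without F0 WD replicate 3, 2 without F0 CD replicate 4 and 4 without F0 WD replicate 4, beside 10, 15 and 20 of all 561, with 0 after adjustment under each. The cause of these changes was not tested. The difference in width was 50.7 to 55.2 bp without 1 library and kept its direction under the alternatives run.

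With the replicate number as a block, detection gave 0, the share 0 and strength 0 regions, and the smallest p that the block allows is 0.125, so that none could pass. Samples of the same number had correlations of their deviations from -0.163 to 0.166 over 561 regions, and 1 of 4 F0 WD libraries correlated best with its own number. The numbers therefore were not taken as pairing the samples. Summits under 9 to 13 reads were not called.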
